A study of Homo sapiens with 3 samples.

Results

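The 58 genes described here encode VCP, the adaptors and cofactors that guide it, and the machinery of endoplasmic reticulum (ER)-associated degradation (ERAD) and of the unfolded protein response (UPR). They were chosen by name, 58 of 19866 protein-coding genes, and all 58 were found in the RefSeq gene table. By role they comprised VCP itself, 26 adaptors and cofactors (16 substrate adaptors and 10 processing or other cofactors), 10 genes of the ERAD machinery and 21 UPR genes. The study mapped proteins on chromatin in HCT116 cells, an established line from a human colorectal cancer, which here expressed Flag-tagged VCP. Fixed chromatin cut with micrococcal nuclease was precipitated with an antibody that recognises VCP (1 library) or with one that recognises the Flag tag (1 library), and an input library without antibody was made alongside and is not analysed here. The labels do not state the promoter that drives the tagged protein, whether the cells were 1 clone, or how much of it they made. The antibody to VCP can bind the tagged and the cell's own VCP, and the antibody to Flag only the tagged form. With 1 library per antibody there is no replicate error, and no p-value is given for any count of genes.

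VCP, also called p97, is a ring-shaped ATPase that pulls ubiquitin-tagged proteins out of membranes, complexes and chromatin so that the proteasome can degrade them. Adaptors such as the UFD1-NPLOC4 pair and p47 (NSFL1C) choose the substrate, and in ERAD the ATPase draws misfolded proteins from the ER membrane through channels built around SYVN1, SEL1L and the derlins. When misfolded proteins accumulate, the sensors IRE1 (ERN1), ATF6 and PERK start the UPR. ATF6 and XBP1 then switch on chaperone genes through promoter elements called ERSE and UPRE, and ATF4 switches on amino acid and stress genes through a composite C/EBP-ATF element.

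The question was whether VCP was found on chromatin at the genes of its own pathway. Each list was made by the peak caller and gives, per peak, a summit, a fold enrichment (the authors' ratio of reads at the summit to the local background) and a q-value. A gene was counted at an end when a summit lay within 1 kb of either end, and as inside when a summit lay in the gene and over 1 kb from both ends. For neighbouring genes too, an end is either the start or the finish of the gene. In all, 13 of the 58 genes had a summit of either list (22.4%), beside 20.1% of all protein-coding genes, and 45 had none. In the Flag list 7 genes had a summit at an end (12.1%), beside 11.7% of all protein-coding genes, and 4 had one inside (6.9%), beside 6.75%. Both shares were near the background and are no result about these genes. In the VCP list 3 genes had a summit at an end (5.17%), beside 2.34% of all protein-coding genes, and 1 had one inside (1.72%), beside 2.35%. Together these are 4 genes (6.9%), beside 4.63% of all. For the Flag list the genes with either kind of summit numbered 9 (15.5%), beside 17.5%.

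UPR genes were marked in both lists and adaptors in the Flag list alone, with counts too small to separate the classes. All 4 genes marked in the VCP list were UPR genes, namely DNAJC3, CHAC1 and CRELD2 at an end and ATF3 inside. In that list 0 of 26 adaptors and cofactors and 0 of 10 ERAD genes were marked, beside 4.63% of all protein-coding genes. In the Flag list the genes with an end summit were VCP, the 4 adaptors UFD1, NSFL1C, FAF1 and UBXN2A, and the 2 UPR regulators ATF4 and ERN1. None of the 10 ERAD genes had an end summit in either list. No gene of the 58 had an end summit in both lists, where 0.987% of all protein-coding genes did. The differences between classes rest on 0 to 4 genes each and were not tested.

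**Figure D1:**
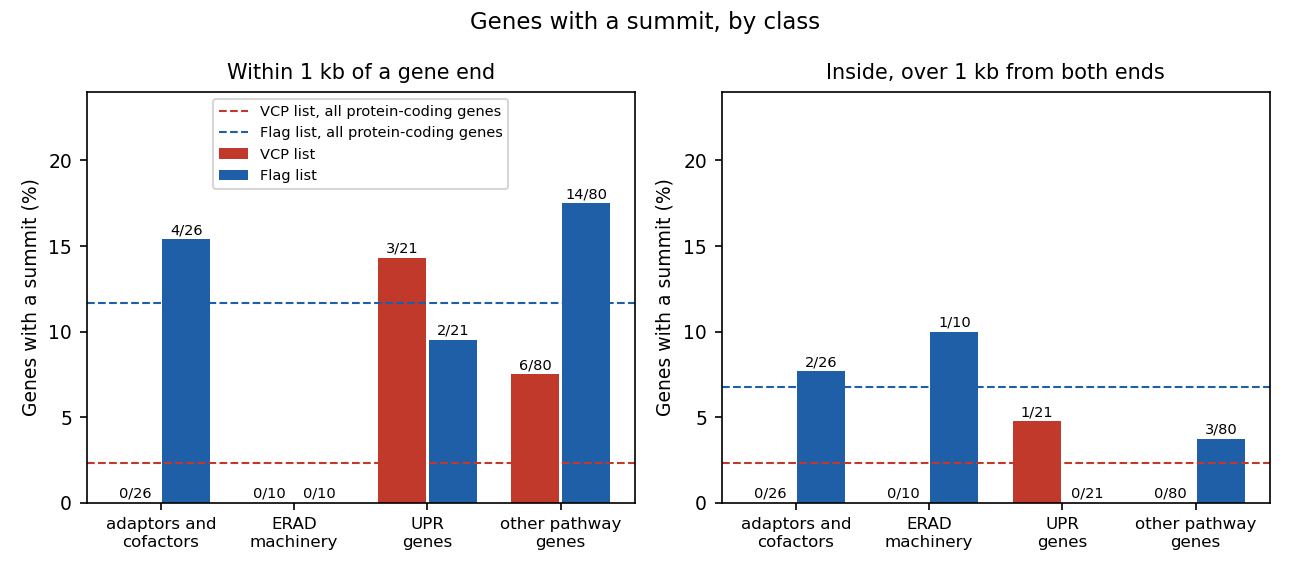
Share of genes (%) with a summit at an end (left) or inside (right), for 3 classes and for 80 other pathway genes, in the VCP list (red bars) and the Flag list (blue bars), with the number of genes above each bar. The 80 were listed with earlier results of these data known. Dashed lines give the share of all 19866 protein-coding genes; among UPR genes the VCP list reached 3 of 21 at ends, and among ERAD genes neither list reached any.

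Promoter sequence shows where the summits fell. The lines below give the 250 bases before an annotated start, 5′ to 3′ on the gene's strand, from RefSeq on GRCh38.p14. They are the windows that held a Flag summit with a q of at most 0.05, and that of FAF1, whose Flag summit had q = 0.348, is not shown. Capitals mark the 21 bases centred on the summit and, in VCP, also an earlier match to the UPRE letters TGACGTGG.

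VCP (chr9:35072626-35072875, minus strand): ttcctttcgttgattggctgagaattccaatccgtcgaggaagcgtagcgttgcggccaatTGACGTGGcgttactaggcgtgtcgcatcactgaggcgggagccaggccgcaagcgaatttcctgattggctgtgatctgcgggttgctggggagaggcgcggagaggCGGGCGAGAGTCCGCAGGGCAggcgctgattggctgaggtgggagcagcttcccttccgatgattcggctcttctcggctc

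ATF4 (chr22:39520309-39520558, plus strand): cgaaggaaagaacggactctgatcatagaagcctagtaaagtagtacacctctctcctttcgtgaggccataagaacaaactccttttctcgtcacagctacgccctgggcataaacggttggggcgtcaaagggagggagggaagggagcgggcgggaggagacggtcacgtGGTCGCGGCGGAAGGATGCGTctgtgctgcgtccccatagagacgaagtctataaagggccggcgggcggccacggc

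NSFL1C (chr20:1466850-1467099, minus strand): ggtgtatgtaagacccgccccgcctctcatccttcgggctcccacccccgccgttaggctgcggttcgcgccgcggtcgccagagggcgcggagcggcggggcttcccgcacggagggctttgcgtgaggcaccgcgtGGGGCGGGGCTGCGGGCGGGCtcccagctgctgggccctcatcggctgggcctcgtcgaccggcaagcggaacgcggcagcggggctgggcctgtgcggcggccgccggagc

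RHBDD1 (chr2:226835804-226836053, plus strand): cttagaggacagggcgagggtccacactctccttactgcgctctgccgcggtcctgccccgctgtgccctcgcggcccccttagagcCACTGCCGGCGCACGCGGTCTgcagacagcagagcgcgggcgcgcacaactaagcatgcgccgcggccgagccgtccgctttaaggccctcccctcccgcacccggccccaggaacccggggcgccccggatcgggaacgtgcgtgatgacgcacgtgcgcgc

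The next 3 lines are promoters of UPR genes, shown because they hold the element through which the UPR acts, in capitals. CHAC1 had a VCP-list summit just upstream of the window, CRELD2 had one only at its far end, and HSPA5, the gene of the chaperone BiP, had none in either list. Capitals mark the ATF4 element in CHAC1 and the ERSE in CRELD2, both read on the opposite strand, and the ERSE in HSPA5.

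CHAC1 (chr15:40953221-40953470, plus strand): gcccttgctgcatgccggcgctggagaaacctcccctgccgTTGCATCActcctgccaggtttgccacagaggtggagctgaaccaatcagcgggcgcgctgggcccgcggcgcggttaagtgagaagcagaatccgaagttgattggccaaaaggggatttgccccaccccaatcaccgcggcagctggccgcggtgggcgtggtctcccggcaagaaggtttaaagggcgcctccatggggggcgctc

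CRELD2 (chr22:49918384-49918633, plus strand): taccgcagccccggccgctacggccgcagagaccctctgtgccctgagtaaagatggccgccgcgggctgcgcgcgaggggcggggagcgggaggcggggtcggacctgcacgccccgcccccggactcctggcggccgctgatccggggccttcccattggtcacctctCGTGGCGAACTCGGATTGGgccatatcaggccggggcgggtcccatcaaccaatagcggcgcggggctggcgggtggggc

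HSPA5 (chr9:125241344-125241593, minus strand): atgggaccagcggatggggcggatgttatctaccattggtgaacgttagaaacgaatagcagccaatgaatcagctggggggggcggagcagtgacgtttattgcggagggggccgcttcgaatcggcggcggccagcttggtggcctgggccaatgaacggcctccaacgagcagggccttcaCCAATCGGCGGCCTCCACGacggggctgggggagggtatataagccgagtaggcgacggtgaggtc

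The VCP gene itself carried 3 Flag peaks and no listed VCP peak. It lies on the minus strand of chromosome 9, from 35056064 to 35072625. The peak at its start (chr9:35072407-35072794) had its summit 71 bp before the start, in the sequence above, with 11 reads (95% Poisson interval 5.49 to 19.7) over a local background of 1.85 reads and a fold enrichment of 4.21 (q = 0.0136). The letters of the UPRE began 189 bp before the start, outside the 21 marked bases. The other 2 peaks lay deep inside the gene, 12194 and 12963 bp after the start and 769 bp from each other. The farther one (chr9:35059510-35059770) was the highest of all summits at these genes by fold enrichment, at 5.75, with 23 reads (14.6 to 34.5) over a background of 3.17, and ranked 62 of 5719 Flag peaks by q (q = 3.5e-08). The nearer one (chr9:35060336-35060520) had 12 reads over 2.27, a fold enrichment of 3.98 and q = 0.0149. Only 0.529% of protein-coding genes held 3 or more Flag summits within the gene and 1 kb around it, and 8 of the 8877 genes of up to 20 kb did (0.0901%). The cells also carry an introduced VCP copy, and how much of the gene's sequence it holds is not known here. Where the copy and the gene share sequence, their reads cannot be told apart in the peak lists. Whether any of the 3 peaks came from the copy was not tested. The gene table gives no exons, so exon or intron is not stated for inner summits.

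**Figure D2:**
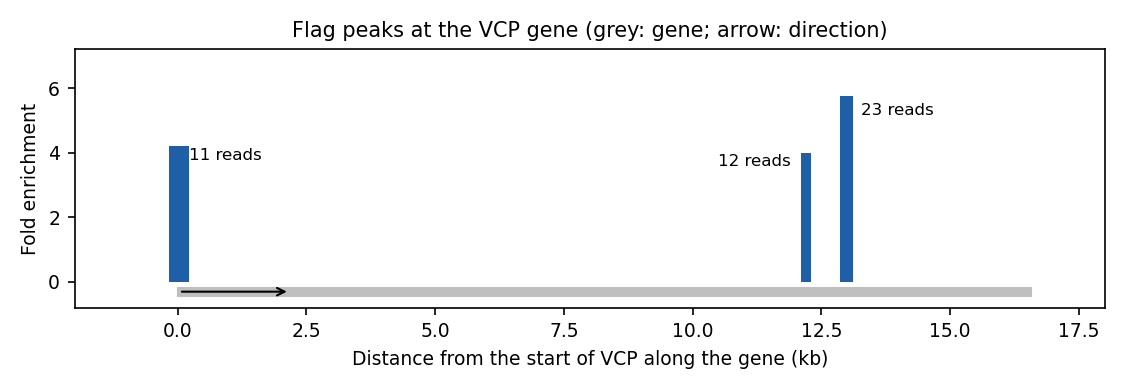
Flag peaks along the VCP gene (grey bar, start at 0, arrow in the direction of transcription), with distance from the start in kb and the authors' fold enrichment as bar height over each peak's extent. The start peak rests on 11 reads, and the inner peaks, 769 bp apart, on 12 and 23 reads.

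Among the 16 substrate adaptors 4 had a Flag summit at an end (25%), beside 11.7% of all protein-coding genes, and 0 had a VCP-list summit. UFD1, which with NPLOC4 recruits ubiquitin chains to VCP, had 20 reads (12.2 to 30.9) over a background of 3.63 at chr22:19479201-19479684, a fold enrichment of 4.54 (q = 4.07e-05). Its summit lay 375 bp outside UFD1 and 102 bp from the nearer end of CDC45, a replication gene. NSFL1C, the p47 adaptor for membrane fusion, had 16 reads (9.15 to 26) over 2.95 at chr20:1466890-1467070, a fold enrichment of 4.3 (q = 0.000833), and its summit 102 bp before the start lay in a GC-rich stretch of the sequence above. These 2 adaptor peaks passed a q of 0.05.

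The other 2 adaptor peaks at ends did not reach a q of 0.05. FAF1, a ubiquitin-binding UBX protein, had 10 reads (4.8 to 18.4) over 2.72 at chr1:50960350-50960692 (fold enrichment 2.96, q = 0.348). This summit lay 97 bp before the start of FAF1 and 381 bp from the nearer end of CDKN2C, a cell cycle inhibitor gene. UBXN2A, another UBX adaptor, had 15 reads (8.4 to 24.7) at chr2:23926880-23927527, but over a background of 4.99, so its fold enrichment of 2.67 was the lowest of the 13 Flag summits at these genes (q = 0.23). That summit lay 178 bp before the outer start of UBXN2A and 23 bp from the nearer end of ATAD2B. With each peak counted only for the nearest gene end, UFD1 and UBXN2A dropped out and 2 of the 16 adaptors were left, beside 9.8% of all protein-coding genes by that measure.

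NPLOC4, the partner of UFD1, had no listed summit in either list. Nor did ASPSCR1, FAF2, PLAA, UBXN1, UBXN2B, UBXN4, UBXN6, UBXN7, UBXN10 or UBXN11. None of the 10 processing or other cofactors had a summit either, beside 20.1% of all protein-coding genes with a summit of either list. That count is too small to read as a difference. These cofactors are the deubiquitinases YOD1, VCPIP1 and ATXN3, the ubiquitin ligase UBE4B, the glycanase NGLY1, the protease SPRTN, the methyltransferase VCPKMT, the VCP inhibitor SVIP, ZFAND1 and ZFAND2B.

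Inside the adaptor genes 2 Flag summits were listed. FAF1 spans 523240 bp and had a peak 245372 bp from its nearer end, with 13 reads (6.92 to 22.2) over the lowest background of 1.85 (fold enrichment 4.92, q = 0.000655). UBXN8, an ER membrane protein that tethers VCP, had a broad peak of 691 bp with 9 reads (fold enrichment 3.51, q = 0.154). The UBXN8 summit also lay 204 bp from the nearer end of the non-coding gene LOC105379356. Inner summits were more frequent in long genes in general. In the Flag list they occurred in 2.06% of protein-coding genes of up to 20 kb and in 20.1% of those over 100 kb, and 2 of the 5 genes over 100 kb described here had one, FAF1 and RHBDD1.

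The ERAD machinery had 1 marked gene of 10 (10%, beside 20.1% of all protein-coding genes with a summit of either list), a count too small to read as a difference. RHBDD1, a rhomboid protease that cuts membrane proteins for ERAD, is 199052 bp long and had 2 Flag summits inside it. The summit at chr2:226835828-226836299 lay 35742 bp from the outer end of the gene but 153 bp before an annotated inner start, in the sequence above, with 12 reads (6.2 to 21) over 2.54 (fold enrichment 3.67, q = 0.0383). The other, at chr2:226995743-226996042, lay 3288 bp from the far end with 16 reads (9.15 to 26) over 2.72 (fold enrichment 4.57, q = 0.000353). The ligase SYVN1 and its partners SEL1L, HERPUD1 and OS9, the mannosidase-like EDEM1, the derlins DERL1, DERL2 and DERL3, and the VCP anchor SELENOS had no summit at an end or inside in either list.

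Of the 6 UPR sensors and transcription factors, ATF4 and ERN1 had a Flag summit at the start and ATF3 a VCP-list summit inside, while ATF6, XBP1 and DDIT3 had none. Together 3 of the 6 had a summit of either list (50%, beside 20.1% of all protein-coding genes), a count too small to read as a difference. ATF4, the transcription factor of the PERK branch, had 25 reads (16.2 to 36.9) at chr22:39520317-39520554, the highest read number at any of these genes, with its summit 67 bp before the start. Its local background of 5.9 reads was also the highest at these genes and ranked 57 of 5719 in the Flag list, which left a fold enrichment of 3.77 (q = 9.09e-05). ERN1, the IRE1 kinase and nuclease that splices XBP1 mRNA, had 12 reads (6.2 to 21) over 3.17 at chr17:64130367-64130556, 285 bp before its start (fold enrichment 3.11, q = 0.154). ATF3, a stress-induced repressor, had a VCP-list peak at chr1:212566920-212567100, 1602 bp after its outer start, with 11 reads (5.49 to 19.7) over 1.74 (fold enrichment 4.38, q = 0.0747). It ranked 133 of 1816 VCP peaks by q and was the strongest of the 4 VCP-list summits at these genes.

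Of the 12 UPR target chaperones 2 had a VCP-list summit at an end (16.7%, beside 2.34% of all protein-coding genes), and 0 had a Flag summit at an end or inside, beside 17.5% of all. These counts are too small to read a preference from. DNAJC3, the p58IPK co-chaperone, had 9 reads (4.12 to 17.1) over 1.74 at chr13:95676642-95676865 (fold enrichment 3.65, q = 0.408). This summit lay 325 bp before the start of DNAJC3 and 111 bp from the nearer end of the divergent non-coding gene DNAJC3-DT. CRELD2, a secreted ER stress protein, had 8 reads (3.45 to 15.8) over 1.74 at chr22:49927174-49927365, but this summit lay 185 bp inside the far end of the gene, 8718 bp from the start (fold enrichment 3.28, q = 0.623). HSPA5, HSP90B1, HYOU1, DNAJB9, SDF2L1, CALR, CANX, PDIA4, PDIA6 and MANF had none. Of the 3 targets of the ATF4 branch, CHAC1, which degrades glutathione, had 10 reads (4.8 to 18.4) over 3.42 at chr15:40953029-40953216, 321 bp before its start (fold enrichment 2.49, q = 0.882). TRIB3 and ASNS had none.

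The 3 VCP-list summits at ends were near the median of such peaks or weaker. They had 8 to 10 reads and fold enrichments from 2.49 to 3.65, beside a median of 3.61 over all 395 VCP peaks at gene ends. By q, DNAJC3 ranked 603, CRELD2 1087 and CHAC1 1641 of 1816. The inner summit of ATF3 was stronger, with a fold enrichment of 4.38 beside a median of 3.28 over the VCP list and rank 79 by fold enrichment. None of the 4 reached a q of 0.05, a threshold that 0.272% of all protein-coding genes passed at an end and 0.171% inside. The 3 of 21 UPR genes marked at an end in the VCP list (14.3%, beside 2.34% of all protein-coding genes) therefore all rest on peaks the q threshold removes. In the Flag list 4 of the 7 end summits passed it, those of VCP, UFD1, NSFL1C and ATF4 (6.9% of the 58 genes, beside 5.53% of all). The fold enrichments of all 7 ranged from 2.67 to 4.54 with a median of 3.77, beside a median of 3.67 over 2027 Flag peaks at gene ends. Inside, 3 of the 4 genes marked in the Flag list kept a summit at that threshold, FAF1, RHBDD1 and VCP (5.17% of the 58, beside 2.29% of all).

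**Figure D3:**
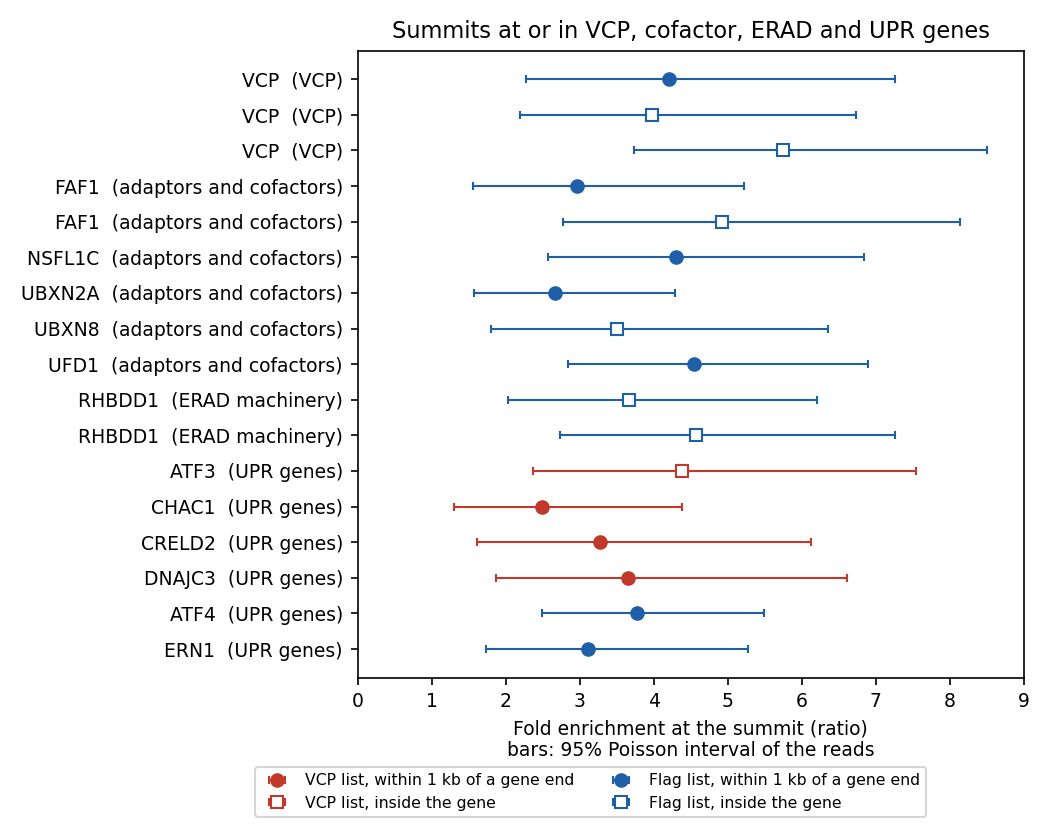
The authors' fold enrichment (x axis, ratio) at each of the 17 summits at or in these genes, by gene and class; bars give the 95% Poisson interval of the reads with the local background held fixed. Red is the VCP list and blue the Flag list, filled circles are summits at ends and open squares summits inside; every interval overlaps every other.

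The intervals of all 17 summits overlapped. They cover counting error with the local background held fixed, and overlap is no test of equal enrichment. Differences in fold enrichment between the genes were not tested, and no order is read from them. The total reads of the libraries are not in the files, and depth was read from the peaks. The lowest local background of any VCP peak was 1.74 reads, and that of any Flag peak 1.85 reads. At that background 7 reads were needed for a peak to be listed in either list, and at the background of ATF4 15 reads were needed. A gene without a listed summit can therefore still carry a few reads above background, and binding there was not detectable rather than absent.

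**Figure D4:**
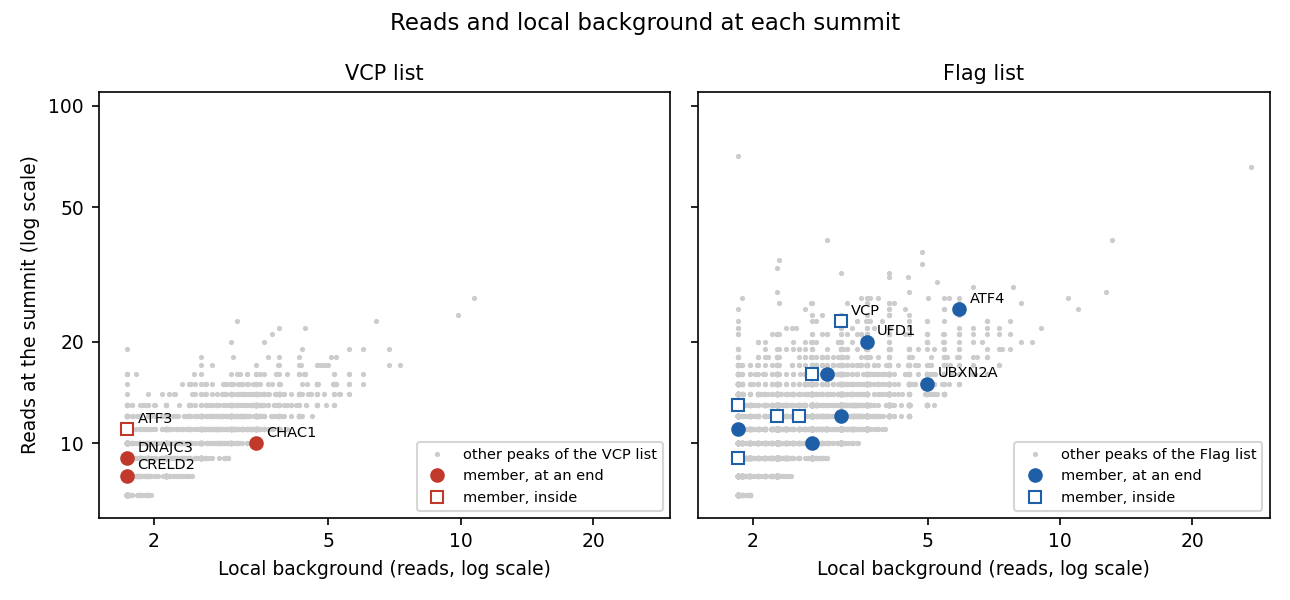
Reads at the summit against local background, both in reads on log axes, for every peak of the VCP list (left) and the Flag list (right) in grey and for the genes described here in colour; 4 VCP and 14 Flag peaks lie beyond the axes. ATF4 and UBXN2A stand at the right of the Flag panel, with backgrounds of 5.9 and 4.99, and 3 of the 4 VCP-list summits stand at the lowest background of 1.74.

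Summits at ends lay close to starts. Of the 10 end summits (3 VCP-list and 7 Flag) the distance to the gene end was 67 to 375 bp, with a median of 181.5 bp, and 7 lay within 1 kb of an annotated start. The CRELD2 summit was at the far end. That of UBXN2A lay 178 bp before the gene's outer start, but the nearest start in the promoter table was 13363 bp away. UFD1 has no entry there, so which of its ends is the start was not read. The start or finish of a protein-coding neighbour also lay within 1 kb of 3 of the 10 summits, those of UFD1, UBXN2A and FAF1. No peak at these genes overlapped a peak of the other list. The shortest distance from one of these summits to a summit of the other list was 31633 bp, at UFD1.

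The promoter table matched 50 of the 58 genes, with 67 windows of 300 bases (250 before and 50 after a start), and had no entry for UFD1, UBXN2B, UBXN8, VCPIP1, ATXN3, ZFAND1, DERL1 and DERL3. The median GC content of the 67 windows was 66%, beside 62.3% for all protein-coding windows. The windows of genes with a Flag end summit had a median of 64.3% (7 windows) and those with a VCP-list end summit 72.7% (3 windows). None of these 3 windows held the summit, which lay 325 bp (DNAJC3), 321 bp (CHAC1) and 8718 bp (CRELD2) from the nearest start. The Flag summits of ERN1 (285 bp) and UBXN2A (13363 bp) also lay outside their windows. The medians thus describe the genes' windows and not the places of the summits.

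Genes with an ERSE or ERSE-II at a start had no summit there, a count too small to read as a difference. Both strands of the windows were searched for ERSE (CCAAT and CCACG with 9 bases between), ERSE-II (ATTGG and CCACG with 1 base between), UPRE (TGACGTGG) and the ATF4 element (TGATGNAA), whose matches may overlap each other. ERSE occurred in 27 of 35085 windows of all genes (0.077%), and 9 of these belonged to 7 genes described here, CALR, CANX, CRELD2, HSP90B1, HSPA5, PDIA6 and XBP1. ERSE-II occurred in 0.0542% of windows and in HERPUD1, HYOU1 and SDF2L1. UPRE occurred in 0.73% of windows and in HYOU1 and VCP, and the ATF4 element in 3.61% of windows and in ASNS, ATF3, CHAC1 and HERPUD1. No adaptor or cofactor among the 20 with a window held any of them. None of the 10 genes with ERSE or ERSE-II had a summit of either list within 1 kb of a start, where, of the protein-coding genes with a window, 2.37% had a VCP summit there and 12.6% a Flag summit. The VCP-list summit of CHAC1 lay 112 bp upstream of the ATF4 element shown above. A match describes letters only, and binding of ATF6, XBP1 or ATF4 was not measured.

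A few summits lay between 1 and 3 kb from a gene end. The inner ATF3 summit, 1602 bp from the gene's outer start, would count as an end summit with a 3 kb window. A VCP-list summit lay 1976 bp from the far side of UFD1 (fold enrichment 3.74, q = 0.25), 224 bp from the nearer end of C22orf39. A strong Flag summit with 20 reads and a fold enrichment of 6.88 (q = 5.14e-09, rank 48) lay 1743 bp from MANF, a secreted ER stress protein. It was 145 bp from the nearer end of RBM15B, an RNA-binding protein gene. Flag summits lay 2109 bp from DERL2, 163 bp from the nearer end of the helicase gene DHX33 (fold enrichment 2.87, q = 0.343), and 2995 bp from DERL1 (3.79, q = 0.0509). The 3 of these summits near UFD1, MANF and DERL2 were thus each nearer to another protein-coding gene. Within the limit the farthest end summit lay 375 bp from its gene, at UFD1.

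A further 80 genes of the pathway were listed by name, with earlier results of these data known, so their shares may not be independent of the data. These genes had higher shares than all protein-coding genes at ends and lower shares inside, which was not tested. Inside, the VCP list had 0 (beside 2.35%) and the Flag list 3 (3.75%, beside 6.75%), so that 15 had any Flag summit (18.8%, beside 17.5%). At ends the VCP list had 6 (7.5%, beside 2.34% of all protein-coding genes). They were RNF139, an ER ubiquitin ligase (14 reads, fold enrichment 4.85, q = 0.0046), UFM1, a ubiquitin-like modifier for ER quality control (12 reads, 4.74, q = 0.0202), ERLEC1, an ERAD lectin (10 reads, 3.84, q = 0.201), TMUB1 (9 reads, 3.56, q = 0.408), the transcription factor gene CEBPB (10 reads, 3.31, q = 0.416) and the oxidase ERO1B (8 reads, 3.28, q = 0.623). Of these 2 passed a q of 0.05 (2.5% of the 80, beside 0.272%). The ERLEC1 summit was nearer to an end of ASB3 (68 bp) than to the start of ERLEC1 (159 bp).

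In the Flag list 14 of the 80 had a summit at an end (17.5%, beside 11.7%), and 6 at a q of at most 0.05 (7.5%, beside 5.53%). The 8 with the highest -log10 q were SEC61A1, the channel of the ER translocon (17 reads, fold enrichment 5.2, q = 2.17e-05), the disulfide isomerase P4HB (17 reads, 3.98, q = 0.00165), the mannosidase-like EDEM2 (13 reads, 4.28, q = 0.00402), RNF139 (12 reads, 4.33, q = 0.00562), the stress gene DDIT4 (12 reads, 4.26, q = 0.00706), the ERAD ligase TRIM13 (12 reads, 3.98, q = 0.0149), and PHGDH and SIL1 (10 reads and 3.86 each, q = 0.0509). RNF139 was the 1 gene of the 80 with end summits in both lists (1.25%, beside 0.987% of all protein-coding genes), and no peaks of the lists overlapped there. The Flag peak nearest to its VCP-list peak, 265 bp away, was a weaker one than that given above (14 reads over a background of 4.08, fold enrichment 2.95, q = 0.154). Over all 138 pathway genes 9 had an end summit from the VCP antibody (6.52%, beside 2.34% of all protein-coding genes) and 21 from the Flag antibody (15.2%, beside 11.7%). Any Flag summit at an end or inside was found in 24 of the 138 (17.4%, beside 17.5%). The 138 include the 80 genes listed with earlier results of these data known. Those 80 gave 6 of the 9 genes from the VCP antibody and 14 of the 21 from the Flag antibody. The pooled shares may therefore not be independent of the data either, and they were not tested.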

How the data were processed

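The VCP and Flag peak lists were analysed, 1 library each, and the input library was not analysed here. Trimmomatic 0.33, Bowtie 1.1.2 and MACS2 2.1.0 were among the tools, on hg38, per the submitters' processing notes, with settings not known here. The authors deposited per peak a fold enrichment (a ratio), -log10 p, -log10 q and a score, which was not used. The lists reach down to a deposited -log10 p of 3.00, so many peaks have high q. Peaks were called per library. Reads and local background were recovered from the deposited fold enrichment and -log10 p as a Poisson tail with a pseudocount of 1 read, and gave whole reads (tolerance 0.001 in -log10 p) for each of 1816 VCP and 5719 Flag peaks. Intervals are exact Poisson 95% intervals of those reads and cover counting error only, since reads copied by PCR are not independent molecules.

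Genes came from RefSeq on GRCh38.p14, and 19866 protein-coding genes on the chromosomes formed the background, expressed or not. Starts and strands came from a RefSeq promoter table. Named genes were VCP, every gene with a summit and, of the other pathway genes, up to 8 per list by -log10 q. The genes and lists were chosen with earlier results of these data known. On simulated data 200 of 200 planted summits and 500 of 500 read numbers were recovered. Alternatives were other windows, stricter q, peak extent, nearest end, starts only and other overlap rules. Python 3.11.15 and scipy 1.17.1 were used.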

Additional observations from a re-analysis of the deposited data

How the results depend on the processing

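With a 3 kb window the count of genes at an end rose from 3 to 5 in the VCP list (ATF3 and UFD1 added, beside 3.04% of all protein-coding genes). The count inside fell from 1 to 0 (beside 2.11%), and 1 gene, UFD1, had end summits in both lists (beside 1.35%). At a q of at most 0.05 the VCP list had 0 genes at an end (beside 0.272% of all protein-coding genes) and 0 inside (beside 0.171%), and the Flag list 4 at an end in place of 7 (beside 5.53%). At -log10 q of at least 5 the VCP list had 0 at an end and 0 inside (beside 0.00503% of all protein-coding genes each). The Flag list had 0 at an end (beside 0.7%) and 1 inside, the VCP gene (beside 0.176%). The other 23 of 33 alternative counts stayed within 1.5 times the reported ones, or at 0. They include the count of peaks shared between the lists, which was 0 under all 3 overlap rules. With starts only, 2 of the 50 genes with a window were marked by the VCP antibody (beside 2.37% of all protein-coding genes with a window). The Flag antibody marked 6 (beside 12.6%), where RHBDD1 entered. No paired analysis was possible because each antibody has 1 library. Depth limits every count: at these read numbers a gene without a listed peak was not shown to lack binding, and 1 library per antibody gives no spread between cultures.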
